A study of Mus musculus with 20 samples.

Results

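The 8 genes described here are Krt4, Krt10, Krt17, Evpl, Ppl, Tgm1, Sfn and Sbsn, a set named for the suprabasal cells and the periderm of the embryonic skin. They were taken by symbol from the count tables, where each symbol occurs once, and they are 8 of 23432 gene symbols counted. The counts come from 12 RNA libraries of sorted mouse back skin cells in 4 groups of 3. E13 KO epidermis is GFP-sorted epidermis of embryonic day 13 with the genotype ΔNp63-GFP KI-KO, a knock-in of GFP at the ΔNp63 form of Trp63. E13 Het epidermis is GFP-sorted epidermis of embryonic day 13 and E9 Het epidermis GFP-sorted epidermis of embryonic day 9, both ΔNp63-GFP KI-Het. E13 Het dermis is CD140a-sorted dermis of embryonic day 13 from ΔNp63-GFP KI-Het skin. All 4 groups thus carry the GFP knock-in, there is no wild-type group, and GFP marks cells in which the ΔNp63 locus is active. The dermal libraries were made from oligo(dT)-selected RNA and the epidermal libraries after removal of rRNA, so tissue and library preparation cannot be told apart. The labels do not state that replicates are separate animals, so p-values measure the spread between these samples, which may be technical.

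The epidermis begins as a single sheet of surface ectoderm that makes keratins of simple epithelia. As it stratifies, a basal layer with Krt5 and Krt14 gives rise to suprabasal cells that switch to Krt1 and Krt10, while a thin transient outer layer, the periderm, covers the surface until a barrier forms. Cells that leave the basal layer later build the cornified envelope, a protein shell under the plasma membrane in which the plakins envoplakin and periplakin form an early scaffold and transglutaminase 1 makes the cross-links. Trp63 encodes the transcription factor p63, which the stratified epidermis needs to develop.

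Promoter sequence was at hand for 4 of the 8 genes, Krt10, Tgm1, Sfn and Sbsn, in RefSeq annotation of GRCm38.p6. The 250 bases before the annotated start are printed for Sfn, the gene of the set that passed the test in knockout against E13 Het epidermis, and for Krt10 and Sbsn, a keratin and a secreted protein of suprabasal cells. Each runs 5′ to 3′ on the gene's own strand, and capitals mark a motif match. Matches to the p53-family spacing, described below, are not capitalised. The Sfn window is chr4:133602169-133602418 on the minus strand, the Krt10 window chr11:99389365-99389614 on the minus strand and the Sbsn window chr7:30751221-30751470 on the plus strand.
Sfn: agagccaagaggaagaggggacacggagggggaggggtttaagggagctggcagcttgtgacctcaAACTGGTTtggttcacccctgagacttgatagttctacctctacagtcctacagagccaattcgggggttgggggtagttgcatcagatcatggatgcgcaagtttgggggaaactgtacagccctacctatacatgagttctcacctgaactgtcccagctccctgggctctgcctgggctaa
Krt10: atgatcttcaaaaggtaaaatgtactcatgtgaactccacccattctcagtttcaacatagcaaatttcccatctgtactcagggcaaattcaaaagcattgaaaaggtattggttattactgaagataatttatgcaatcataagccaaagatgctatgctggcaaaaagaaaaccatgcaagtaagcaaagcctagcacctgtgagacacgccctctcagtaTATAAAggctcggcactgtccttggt
Sbsn: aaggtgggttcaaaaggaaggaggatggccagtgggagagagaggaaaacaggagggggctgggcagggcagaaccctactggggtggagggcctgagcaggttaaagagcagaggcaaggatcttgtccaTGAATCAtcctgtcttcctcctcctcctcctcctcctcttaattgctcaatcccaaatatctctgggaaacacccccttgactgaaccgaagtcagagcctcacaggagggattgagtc

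Capitals in the Sfn window mark a match to AACCNGTT, a pattern bound by grainyhead-like factors, found on the opposite strand, so that the printed strand reads AACTGGTT, 184 to 177 bases before the start. In the Krt10 window they mark the TATA box letters TATAAA, 26 to 21 bases before the start, and in the Sbsn window the AP-1 pattern TGANTCA, found as TGAATCA 119 to 113 bases before the start. Both strands were searched, and of 32851 promoter windows of the same length 1.79% held AACCNGTT, 12.4% TATAAA and 6.75% TGANTCA. The Krt10 and Sbsn windows held no AACCNGTT, and neither window of Tgm1, which has annotated starts at 2 places, held any of these 3 patterns. The paired C and G spacing of a p53-family site occurred in the windows of Sfn, Sbsn and Tgm1 and not in that of Krt10, but 63.5% of all windows hold it. An AP-2 pattern, GCCNNNGGC, held by 13.7% of all windows, matched no window of Krt10, Tgm1, Sfn or Sbsn. A match is a string of letters and not a measured binding site, and the windows of Krt4, Krt17, Evpl and Ppl were not searched.

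Gene counts came to between 3373819 and 7777808 per epidermal library and between 16931664 and 33386872 per dermal library. Levels are given as CPM, a gene's count relative to its library's total after TMM scaling over the 12 libraries. They serve to compare libraries for 1 gene and not genes with each other, since transcript length was not corrected for. Trp63, the targeted gene, was at 22.9, 24.9 and 20.5 CPM in E13 KO epidermis, against 530.1, 613 and 457 CPM in E13 Het epidermis, a log2 fold change of −4.54 ± 0.28 (SE; edgeR adjusted p = 1.5e-06). It was at 279, 219 and 122 CPM in E9 Het epidermis and at most 2.11 CPM in dermis. Pdgfra, which encodes CD140a, averaged between 30.8 and 54.9 CPM in the epidermal groups and 808 ± 197 CPM in dermis (SD, n = 3). The 12 dermal mesenchyme markers summed to 1811 to 2978 CPM in E13 KO epidermis, 1055 to 2281 CPM in E13 Het epidermis and 330.0 to 414 CPM in E9 Het epidermis, against 33137 to 46014 CPM in dermis. The 9 simple epithelium markers summed to 2374 to 3397 CPM in E13 KO epidermis, 457 to 2183 CPM in E13 Het epidermis and 1643 to 1985 CPM in E9 Het epidermis. In bulk samples fewer cells of a type and less RNA per cell cannot be told apart.

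Relative to E9, most of the set was higher in Het epidermis at E13. Krt4, Krt17, Evpl, Tgm1 and Sfn rose, 5 of the 8 genes and none in the other direction, where 4.77% of all 13052 genes tested rose, 2.53% fell and 7.29% were called in either direction (edgeR adjusted p under 0.05). The median log2 fold change of the 8 was 2.84, against 0.00 over all genes tested, and it stays so with Krt4, which had no count at E9, at its lower bound. In 7 of the 8 genes every E13 Het library lay above every E9 Het library, and 15.2% of all genes did so, with 29% not overlapping in either direction. Ppl was the exception. The count of 5 was between 2 and 6 when 1 library was left out: it was 2 without E13 Het replicate 1, E9 Het replicate 1 or E9 Het replicate 4, and 3 without E13 Het replicate 3 or E9 Het replicate 2. None of the 8 passed when E13 Het replicate 1 and E9 Het replicate 4, in which the fewest genes of their groups were detected, were left out together. Of 10 basal layer markers 6 were called higher and 1 lower, with a median log2 fold change of 4.95. Of 9 simple epithelium markers 1 was called lower (median −0.74), and of 12 dermal markers 4 were called higher (median 1.96). The part of these markers in the result was not tested.

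In knockout epidermis at E13 only Sfn fell relative to E13 Het epidermis, 1 of 8 genes, where 1.36% of all genes fell and 2.2% were called in either direction. All 8 fold changes were negative, that of Krt4 turning positive without Het replicate 1, with a median log2 value of −1.35 against 0.03 over all genes tested. In 4 of the 8 the unadjusted edgeR p was under 0.05, as it was in 1494 of all 13052 genes tested. In Krt10, Krt17, Sfn and Sbsn every knockout library lay below every Het library, and 9.9% of all genes did so, with 10.3% the other way and 20.2% in either direction. The count of 1 was 0 without KO replicate 2, without Het replicate 1 or without Het replicate 3, and 2 without KO replicate 1, when Krt17 joined Sfn. Without Het replicate 2 it was 1, Ppl in place of Sfn. Among 10 basal layer markers 5 were called lower in the knockout, and 10 had an unadjusted edgeR p under 0.05 (median log2 −2.37). Among 9 simple epithelium markers 1, Epcam, was called higher. Of these 9, 8 had positive fold changes and 4 an unadjusted p under 0.05 (median 1.19). Among 12 dermal markers none was called, with 1 at an unadjusted p under 0.05 (median 0.45). The part of these markers in the result was not tested.

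Knockout epidermis at E13 was also set against Het epidermis at E9. Krt4 and Evpl were higher, 2 of 8 genes, and none was lower, where 4.62% of all genes were called higher, 3.05% lower and 7.67% in either direction. The median log2 fold change was 1.40, against 0.01 over all genes. Libraries did not overlap for Krt4, Krt17, Evpl and Tgm1, all higher, and for Krt10, lower, where 16.4% of all genes were higher, 15.6% lower and 32% either in that way. The count of 2 was 0 without KO replicate 1, E9 Het replicate 1 or E9 Het replicate 2, and 1 without KO replicate 2, KO replicate 3 or E9 Het replicate 4. The 3 comparisons among epidermal groups share libraries, each group entering 2 of them. Of 12 dermal markers 4 were higher here too, with a median log2 fold change of 3.06, and their part was not tested.

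Against dermis, Het epidermis at E13 had more of Krt4, Krt17, Evpl, Ppl, Tgm1 and Sfn, 6 of 8 genes, where 16.5% of all 12975 genes tested were called higher, 18.2% lower and 34.7% in either direction. The median log2 fold change was 7.13, against −0.13 over all genes. In 7 of the 8 genes, all but Krt10, every epidermal library lay above every dermal library, and 25.1% of all genes did so, with 55.6% not overlapping in either direction. Leaving out any 1 of the 6 libraries gave 5 or 6 genes. The difference covers tissue and library preparation together.

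**Figure D1:**
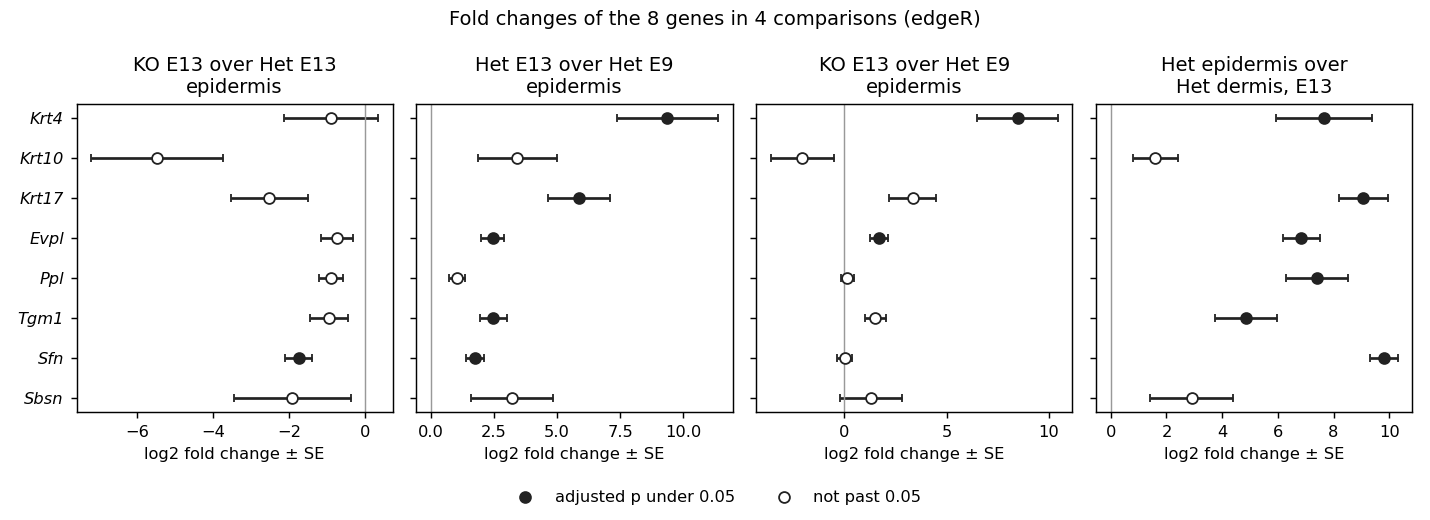
log2 fold changes of the 8 genes in 4 comparisons, from the edgeR fits, with bars of 1 SE. Points with an adjusted p under 0.05 are filled. Krt4 had no count at E9, so its points over E9 are fitted values and give no measured size. Filled points lie to the right for 5 genes in E13 over E9 Het epidermis, for 6 genes in epidermis over dermis and for Krt4 and Evpl in knockout over E9 epidermis, and to the left for Sfn alone in knockout over E13 Het epidermis.

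Krt4 encodes a type II keratin of stratified mucosal epithelia and of the periderm. It lies at chr15:101918535-101924735. E13 KO epidermis had 8.75, 2.41 and 11.1 CPM, against 34.3, 4.08 and 3.42 CPM in E13 Het epidermis. E9 Het epidermis had no count in any of 3 libraries, and dermis had 3 counts in 1 library and none in the other two. The keratin was thus counted in every E13 epidermal library and in none at E9, and knockout and Het libraries at E13 overlapped.

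Relative to E9, Krt4 was at least 62.8-fold higher in E13 Het epidermis (edgeR adjusted p = 0.013) and at least 37.6-fold higher in knockout epidermis (adjusted p = 0.021), where the bounds set the E9 group to 3 counts over its 3 libraries. E13 Het replicate 1 held 149 of the 202 Het counts, and without it the Het bound was 21.6-fold and the call was lost (adjusted p = 0.060). The bound also drops with fewer E9 libraries behind it, to 36.8-fold for Het and 22.1-fold for knockout epidermis without E9 Het replicate 1. The knockout call was lost without KO replicate 1 or E9 Het replicates 1 or 2, with adjusted p up to 0.070. Knockout against Het at E13 gave a log2 fold change of −0.90 ± 1.24 (SE, adjusted p = 0.89, 95% interval −3.59 to 1.79), which turned to 0.997 without Het replicate 1. Against the 3 dermal counts the pooled ratio of epidermis to dermis was 212, with an exact 95% counting interval of 71.4 to 1036 (adjusted p = 0.011). The ratio was 72.9 without Het replicate 1, 107 without dermis replicate 3 and 318 without Het replicate 2, and it was at least 149 without dermis replicate 1, which held the 3 counts.

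Krt10 encodes the type I keratin that replaces Krt14 when cells leave the basal layer. Its annotated span, chr11:99385254-99397449, holds the promoter window printed above. Knockout libraries had 0, 0.803 and 0 CPM, or 0, 6 and 0 counts, against 26.3, 10.8 and 4.11 CPM in E13 Het epidermis, or 114, 87 and 24 counts. E9 Het epidermis had 0.851, 0.887 and 2.07 CPM, or 6, 5 and 9 counts, and dermis 3.61, 4.23 and 4.88 CPM. Every knockout library was below every library of the other 3 groups, though KO replicate 2 lay below E9 only by a narrow margin at few counts. Het epidermis overlapped dermis.

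The log2 fold change of Krt10 in knockout against Het epidermis was −5.47 ± 1.73 (SE, 95% interval −9.18 to −1.76), with an edgeR adjusted p of 0.16 over all genes. DESeq2 and limma voom called it, with adjusted p of 0.00073 and 0.040, and the 11 alternatives ranged up to 0.54. With 1 library left out the log2 value lay between −9.30, without KO replicate 2, and −4.60, without Het replicate 1, and it was not called in any of those fits (edgeR adjusted p 0.11 to 0.48). E13 against E9 Het epidermis gave 3.42 ± 1.56 (adjusted p = 0.24; 2.52 to 3.95 with 1 library left out), and knockout against E9 gave −2.05 ± 1.55 (adjusted p = 0.53). Against E9 the estimate was −5.88 without KO replicate 2, the library that held all 6 counts. Epidermis against dermis gave 1.61 ± 0.79 (adjusted p = 0.15; 0.77 without Het replicate 1 and at most 2.03 with 1 library left out), and Krt10 made up 20.7% to 36.0% of the few keratin counts of the dermal libraries.

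Krt1 encodes the type II partner of Krt10. It had 0, 11 and 0 counts in knockout libraries, 90, 92 and 8 in E13 Het libraries, none in any E9 library and 31, 0 and 82 in dermal libraries. The knockout library with Krt1 counts was also the one with Krt10 counts. Krt1 did not pass the filter on low counts for the epidermal fit, and it was at least 59.1-fold higher in E13 than in E9 Het epidermis by the same bound, and at least 34.6-fold with any 1 library left out, the lowest being without E9 Het replicate 1. Krt13, the usual partner of Krt4, had no count in any of the 12 libraries.

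Krt17 encodes a type I keratin of periderm, early appendages and activated keratinocytes. It lies at chr11:100256215-100261029 in the type I keratin cluster, near paralogs of similar sequence, so that reads may be miscounted. It was at 47.8, 5.22 and 3.63 CPM in knockout epidermis, against 166, 55.2 and 109 CPM in E13 Het epidermis. In E9 Het epidermis it was at 2.13, 3.02 and 0.230 CPM, and in dermis it was at most 0.408 CPM. The 3 epidermal groups did not overlap, and KO replicate 1 stood well above the other 2 knockout libraries.

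Krt17 rose in E13 Het epidermis relative to E9, with a log2 fold change of 5.86 ± 1.23 (SE, edgeR adjusted p = 0.025). Its size held between 5.41 and 6.38 when 1 library was left out, but the call held only without E13 Het replicate 2; without E13 Het replicates 1 or 3 or E9 Het replicates 1, 2 or 4 the adjusted p lay between 0.053 and 0.13. Knockout against Het epidermis gave −2.52 ± 1.01 (adjusted p = 0.37) and, without KO replicate 1, −4.61 (adjusted p = 0.0081). Knockout against E9 gave 3.34 ± 1.14 (adjusted p = 0.13), which was 1.25 without KO replicate 1. Epidermis exceeded dermis by 9.06 ± 0.87 (adjusted p = 0.00037; 10.18 without dermis replicate 1 and 8.23 without dermis replicate 3). Krt6a, which pairs with type I keratins of this kind, had at most 14 counts in any library.

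**Figure D2:**
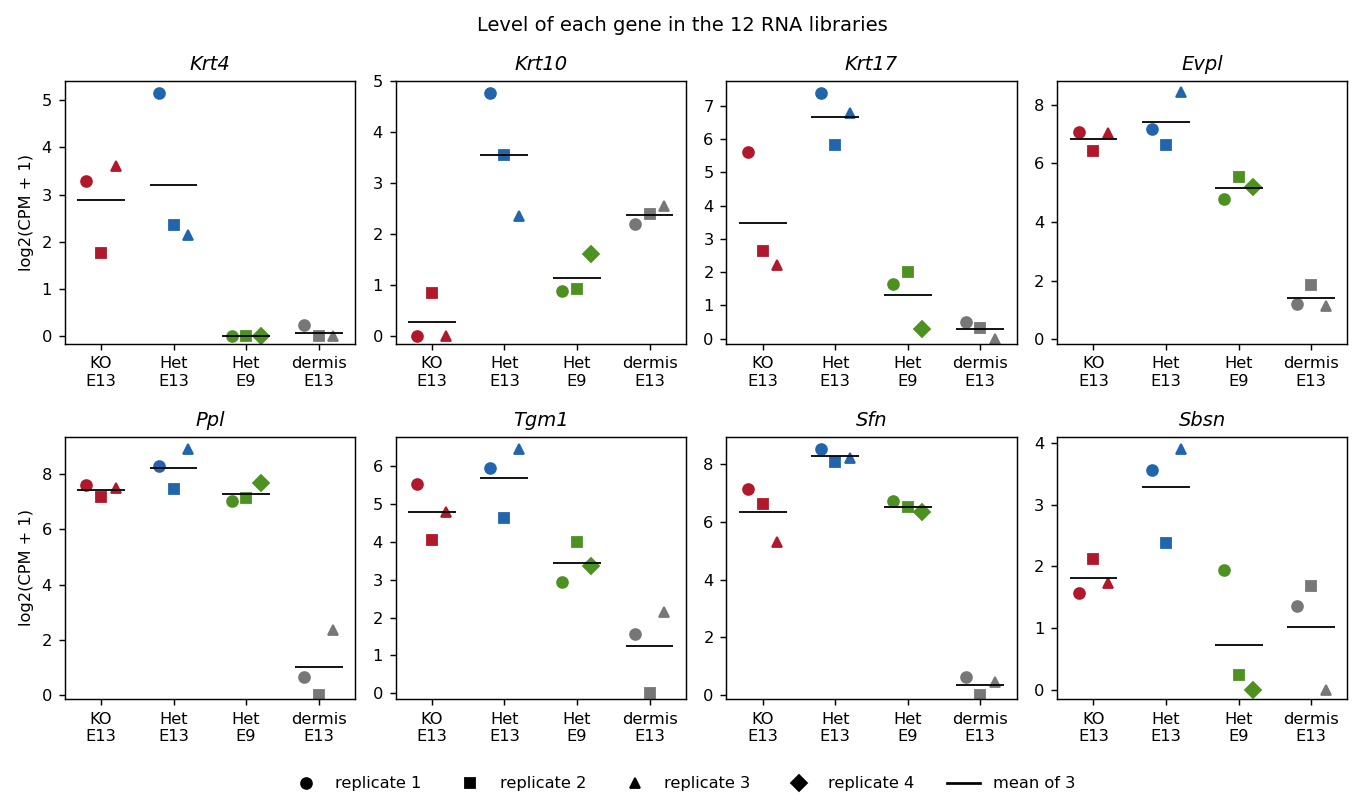
Level of each of the 8 genes in the 12 RNA libraries, as log2(CPM + 1), with 3 libraries a group marked by replicate number and a line at the mean. Krt4 is at 0 in the 3 E9 libraries, Krt10 is lowest in the knockout libraries, and the knockout and Het libraries at E13 do not overlap for Krt10, Krt17, Sfn and Sbsn.

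The 3 keratins were minor parts of the keratin pool, and the pool itself differed between groups. Krt8 and Krt18, keratins of simple epithelia, took 82.6%, 83.9% and 83.7% of all keratin counts in knockout epidermis, 3.24%, 2.05% and 27.7% in E13 Het epidermis and 67.4%, 68.9% and 74.0% in E9 Het epidermis. Krt5 and Krt14 took 3.43%, 1.65% and 2.17% in knockout epidermis, 74.8%, 79.3% and 50.04% in E13 Het epidermis and 5.22%, 4.11% and 2.12% in E9 Het epidermis. Krt8 with Krt18 was thus the largest part in both knockout and E9 epidermis, higher in every knockout library than in every E9 library, and E13 Het replicate 3 lay between the other 2 Het libraries and the rest.

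Within that pool Krt17 took 2.02%, 0.331% and 0.194% in knockout epidermis, against 5.43%, 2.36% and 2.88% in E13 Het epidermis and 0.204%, 0.264% and 0.0160% in E9 Het epidermis. Krt4 took 0.370%, 0.153% and 0.595% in knockout epidermis and 1.13%, 0.175% and 0.0907% in E13 Het epidermis. As shares of keratin counts, Krt17 in the knockout libraries was lower than in each Het library at E13, and Krt4 again overlapped. Krt8 and Krt18 were added here after their values were seen.

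**Figure D3:**
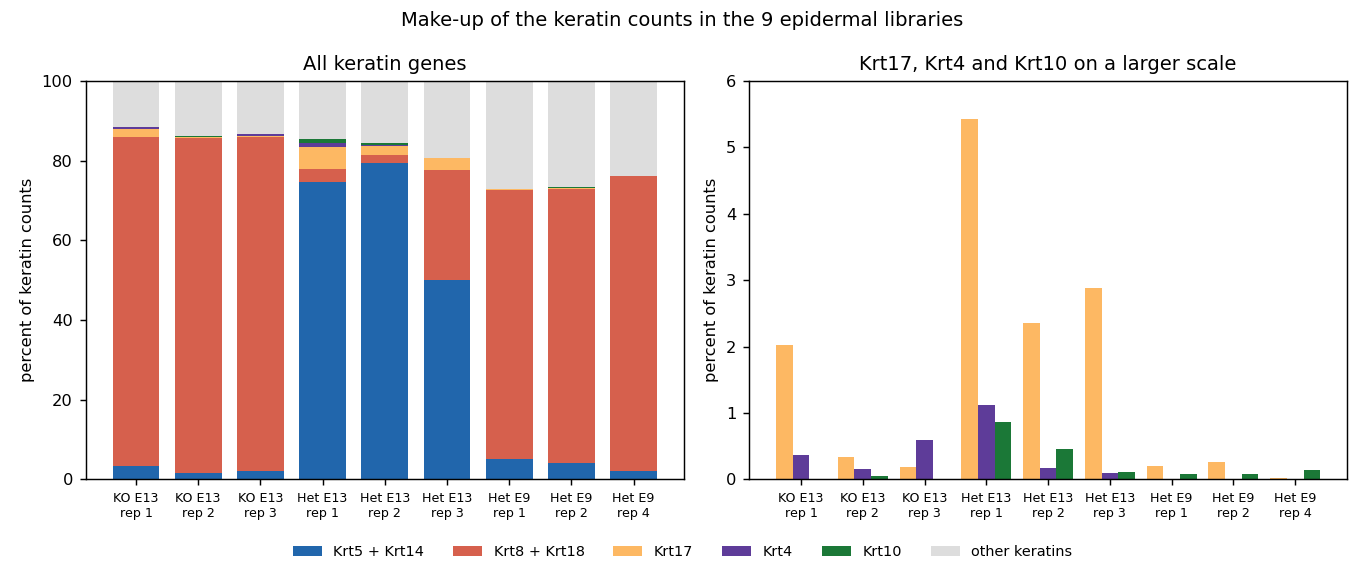
Percent of keratin counts in each epidermal library taken by Krt5 with Krt14, Krt8 with Krt18, Krt17, Krt4, Krt10 and all other keratin genes (left), and the 3 keratins of the set on a larger scale (right). Krt8 with Krt18 is the largest part in the knockout and E9 libraries and Krt5 with Krt14 in the E13 Het libraries, while Krt17 reaches 5.43% in E13 Het replicate 1.

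Evpl and Ppl encode envoplakin and periplakin, plakins that pair with each other and join keratin filaments to desmosomes and to the forming envelope. Evpl (chr11:116220559-116238165) was at 133, 85.0 and 129.6 CPM in knockout epidermis, against 142, 97.5 and 347 CPM in E13 Het epidermis. It was at 26.5, 45.2 and 35.6 CPM in E9 Het epidermis and at most 2.63 CPM in dermis. Both E13 groups lay above E9 in every library and overlapped each other, with E13 Het replicate 3 far above the rest.

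Evpl rose 5.46-fold in E13 Het epidermis relative to E9, a log2 fold change of 2.45 ± 0.45 (SE, edgeR adjusted p = 0.0073). It was called in each of the 6 fits that left out 1 library, with log2 values of 1.71 (without E13 Het replicate 3) to 2.77 and adjusted p up to 0.04997. Knockout epidermis was higher than E9 by 1.70 ± 0.44 (adjusted p = 0.041), a call lost in each of the 6 fits that left out 1 knockout or E9 library (log2 1.5 to 1.91, adjusted p 0.059 to 0.16). Knockout against Het at E13 gave −0.75 ± 0.42 (adjusted p = 0.58, 95% interval −1.68 to 0.19) and −0.03 without Het replicate 3. Epidermis exceeded dermis by 6.84 ± 0.67 (adjusted p = 0.00042; 6.10 without Het replicate 3).

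Ppl (chr16:5086291-5132481) was at 192, 144 and 182 CPM in knockout epidermis, against 310.5, 176 and 482 CPM in E13 Het epidermis. In E9 Het epidermis it was at 131, 141 and 202 CPM, and in dermis it was at most 4.14 CPM. Unlike Evpl, Ppl overlapped between all 3 epidermal groups, with E13 Het replicate 2 and all 3 knockout libraries inside the range of the E9 libraries. E13 Het over E9 Het epidermis gave a log2 fold change of 1.04 ± 0.32 (SE, edgeR adjusted p = 0.078), which was called without E13 Het replicate 2 (1.33, adjusted p = 0.0026). Knockout against Het gave −0.90 ± 0.31 (adjusted p = 0.25), called without Het replicate 2 (−1.21, adjusted p = 0.014) and by DESeq2 (adjusted p = 0.029), with the alternatives ranging up to 0.74. Knockout against E9 gave 0.14 ± 0.31 (adjusted p = 0.89, 95% interval −0.56 to 0.83). Epidermis exceeded dermis by 7.41 ± 1.11 (adjusted p = 0.0026; 9.84 without dermis replicate 3).

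The counts of Evpl per count of Ppl were 0.695, 0.592 and 0.712 in knockout epidermis and 0.456, 0.553 and 0.719 in E13 Het epidermis, against 0.203, 0.322 and 0.177 in E9 Het epidermis. The ratio was higher in each E13 library of either genotype than in each E9 library, and it overlapped between knockout and Het. It compares libraries within this pair of genes and gives no measure of their relative transcript numbers, since lengths differ.

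Tgm1 encodes transglutaminase 1, the enzyme that cross-links envelope proteins. It lies at chr14:55700009-55713921. Knockout epidermis had 45.2, 15.5 and 26.7 CPM, against 60.4, 23.8 and 86.4 CPM in E13 Het epidermis. E9 Het epidermis had 6.67, 14.9 and 9.20 CPM, and dermis 1.98, 0 and 3.44 CPM. The E13 groups overlapped each other and lay above E9, in the knockout by a narrow margin between its lowest library and the highest at E9.

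Tgm1 rose in E13 Het epidermis relative to E9 with a log2 fold change of 2.47 ± 0.54 (SE, edgeR adjusted p = 0.011), lost without E13 Het replicate 3 or E9 Het replicates 1 or 4 (adjusted p 0.053 to 0.063). Knockout against E9 gave 1.51 ± 0.53 (adjusted p = 0.10), and knockout against Het gave −0.96 ± 0.51 (adjusted p = 0.53, 95% interval −2.05 to 0.13). Epidermis exceeded dermis by 4.85 ± 1.12 (adjusted p = 0.015; 5.74 without dermis replicate 3), lost without E13 Het replicate 3 or dermis replicate 1 (adjusted p 0.051 and 0.058). Of 6 other transglutaminase genes counted, only Tgm2 had enough counts to be tested among the epidermal groups, and it was not called there. Tgm2 and F13a1, the A chain of blood coagulation factor XIII, were lower in epidermis than in dermis, with log2 fold changes of −4.91 and −5.10, and the Tgm2 call was lost without any 1 dermal library.

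Sfn encodes stratifin, or 14-3-3σ, the epithelial member of the 14-3-3 family, needed in the mouse for keratinocytes to leave the cell cycle. It lies at chr4:133600556-133602168, next to the promoter printed above. It was at 141, 97.8 and 38.9 CPM in knockout epidermis, against 371, 271 and 295 CPM in E13 Het epidermis. In E9 Het epidermis it was at 105, 91.4 and 80.5 CPM, and in dermis it was at most 0.524 CPM. The E13 Het libraries lay above all others, and the knockout libraries spread around the level of E9.

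Sfn fell in knockout epidermis 3.37-fold, a log2 fold change of −1.75 ± 0.36 (SE, edgeR adjusted p = 0.030). The log2 value lay between −2.19 and −1.42 when 1 library was left out, but the call was lost without KO replicate 2 or Het replicates 1, 2 or 3 (adjusted p 0.073 to 0.13). In E13 Het epidermis Sfn rose by 1.76 ± 0.36 relative to E9 (adjusted p = 0.013), lost without E13 Het replicate 1 or E9 Het replicates 1, 2 or 4 (adjusted p 0.051 to 0.071). Knockout against E9 gave 0.01 ± 0.35 (adjusted p = 0.99, 95% interval −0.77 to 0.78). Epidermis exceeded dermis by 9.82 ± 0.50 (adjusted p = 2.1e-05). The other 6 genes of the 14-3-3 family, which are widely made, were all tested: none was called in knockout against Het epidermis, with 0 at an unadjusted p under 0.05, and Ywhaq alone, with a log2 fold change of −0.55, in E13 against E9 Het epidermis. That call was lost without 4 of the libraries (E13 Het replicate 1 and E9 Het replicates 1, 2 and 4).

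Sbsn encodes suprabasin, a secreted protein of suprabasal cells. It lies at chr7:30732674-30756134 and overlaps Gapdhs in the annotation, so that reads in the overlap may be miscounted. Knockout libraries had 13, 25 and 9 counts, or 1.96, 3.35 and 2.33 CPM, against 47, 34 and 82 counts, or 10.8, 4.21 and 14.03 CPM, in E13 Het libraries. E9 Het libraries had 20, 1 and 0 counts, or 2.84, 0.177 and 0 CPM, and dermal libraries had 27, 26 and 0 counts. Every E13 Het library lay above every library of the other groups, and no comparison passed the test. Log2 fold changes were −1.92 ± 1.53 for knockout against Het (SE, edgeR adjusted p = 0.74), 3.21 ± 1.62 for E13 against E9 Het (adjusted p = 0.30), 1.29 ± 1.52 for knockout against E9 (adjusted p = 0.73) and 2.90 ± 1.5 for epidermis against dermis (adjusted p = 0.17). Without E9 Het replicate 1, which held 20 of the 21 E9 counts, E13 against E9 Het gave 6.36 (adjusted p = 0.13) and knockout against E9 gave 4.45 (adjusted p = 0.27).

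The 3 E13 Het libraries did not order the 8 genes alike. Krt4, Krt10, Krt17 and Sfn were highest in replicate 1, and Evpl, Ppl, Tgm1 and Sbsn in replicate 3. Krt4 and Krt10 were lowest in replicate 3, and the other 6 in replicate 2. The highest library exceeded the lowest 10.0-fold for Krt4, 6.40-fold for Krt10 and 1.37-fold for Sfn, and 2.73-fold to 3.64-fold for the other 5. Replicate 3 also had the most simple epithelium RNA, with 2183 CPM over 9 such markers, against 670.5 and 457 CPM in replicates 1 and 2. The sum was 2374 to 3397 CPM in knockout epidermis and 1643 to 1985 CPM in E9 Het epidermis. Krt8 alone was at 68.9, 21.8 and 630.2 CPM in replicates 1, 2 and 3. The part of these markers in the order of the 8 genes was not tested.

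**Figure D4:**
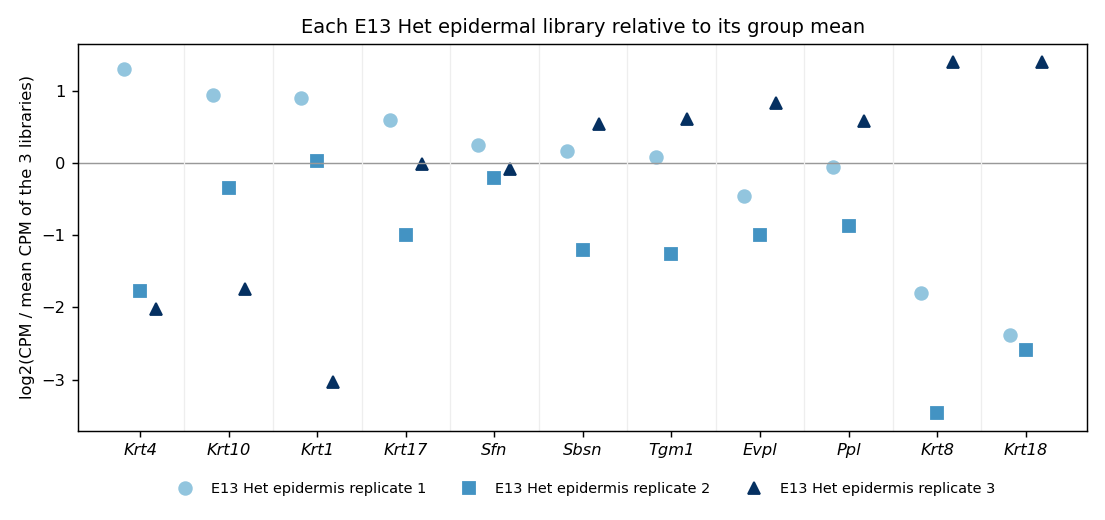
Level of each gene in the 3 E13 Het epidermal libraries relative to their mean, on a log2 scale, with Krt1, Krt8 and Krt18 beside the 8 genes. Replicate 1 is highest for Krt4, Krt10, Krt17 and Sfn and replicate 3 for Sbsn, Tgm1, Evpl and Ppl, as it is for Krt8 and Krt18.

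Other genes of the cornified envelope and of suprabasal cells mostly had too few counts to be tested. Of 23 such genes in the tables, 5 passed the filter, and the list summed to 6.74 to 21.6 CPM in knockout epidermis, 77.6 to 135 CPM in E13 Het epidermis and 2.27 to 45.8 CPM in E9 Het epidermis. Scel, which encodes the envelope precursor sciellin, was at 3.17, 1.87 and 0 CPM in knockout epidermis and at 46.6, 26.98 and 64.7 CPM in E13 Het epidermis. It fell in knockout epidermis (log2 −4.70 ± 0.95 SE, edgeR adjusted p = 0.016), a call lost without KO replicate 2 or Het replicate 3 (adjusted p up to 0.10). It rose in E13 Het epidermis relative to E9 (7.50 ± 1.15, adjusted p = 0.00084), a call kept in each fit that left out 1 library. Lypd3, a surface protein of suprabasal keratinocytes, rose in the same comparison (6.09 ± 1.52, edgeR adjusted p = 0.025). That call was lost without E13 Het replicates 1 or 3 or E9 Het replicates 2 or 4 (adjusted p up to 0.10). The E9 libraries held 1, 3 and 0 counts of Scel and 5, 1 and 0 of Lypd3, so the size of both rises rests on few counts. In total 0 of the 5 tested were higher and 1 lower in knockout against Het, 2 higher and 0 lower at E13 against E9, and 0 called in knockout against E9, where 3 had an unadjusted p under 0.05. Over all genes the shares called in either direction were 2.2%, 7.29% and 7.67%. In knockout against E9, 2746 of all 13052 genes had an unadjusted p under 0.05. The median log2 fold changes over the 5 were −4.70, 2.26 and −0.07 in these 3 comparisons.

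A list of 14 periderm and surface epithelium genes, 10 of them tested, gave 0 calls in knockout against Het epidermis, with 3 at an unadjusted p under 0.05 and a median log2 fold change of 0.38. It shares Krt7, Krt8, Krt18, Krt19, Cldn4 and Cldn6 with the simple epithelium list. In E13 against E9 Het epidermis 2 genes were higher and 1 lower, where 4.77% of all genes were called higher and 2.53% lower. Cldn6, a claudin of early epithelia, was lower at E13 than at E9 in Het epidermis, with a log2 fold change of −1.39 ± 0.28 (SE, edgeR adjusted p = 0.0066).

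Gabrp, which encodes a subunit of the GABA-A receptor, was among those higher. It was at 769 ± 254 CPM in knockout epidermis and 643 ± 686 CPM in E13 Het epidermis, against 8.57 ± 8.27 CPM in E9 Het epidermis (SD, n = 3 each). Its edgeR adjusted p over E9 was 0.025 in the knockout and 0.029 in Het epidermis. The knockout call held only without E9 Het replicate 4, and the Het call was lost without E9 Het replicates 1 or 2 (adjusted p up to 0.11 and 0.13). In knockout against E9 epidermis 3 of the 10 genes were higher, among them Gabrp and Cldn4, where 4.62% of all genes were called higher. The Cldn4 call held only without KO replicate 2 (log2 1.06 ± 0.28, edgeR adjusted p = 0.033, up to 0.14).

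Among 24 regulators of epidermal differentiation, 23 were tested. In knockout against Het epidermis 4 fell and none rose, where 1.36% of all genes fell and 0.835% rose. The median log2 fold change of the 23 was −0.41. Notch1, the receptor that drives the switch from basal to suprabasal cells, was at 134 ± 33.0 CPM in knockout epidermis, against 627 ± 164 CPM in E13 Het epidermis (SD, n = 3 each; log2 −2.22 ± 0.23 SE, edgeR adjusted p = 6.8e-05). Ripk4, a kinase needed for periderm and stratification, fell by 1.41 on the log2 scale (adjusted p = 0.0042). Both were called in each fit that left out 1 library. Grhl3, a transcription factor of barrier formation, had a log2 fold change of −1.40 ± 0.32 (adjusted p = 0.037), a call that held only without Het replicate 2 (adjusted p up to 0.17).

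Of the same 23 regulators, 8 rose and none fell in E13 against E9 Het epidermis (median 1.17). Over all genes 4.77% rose and 2.53% fell. In knockout epidermis against E9, 6 were higher and none lower (median 1.05), where 4.62% of all genes were called higher and 3.05% lower. Zfp750, a factor of terminal differentiation that overlaps Tbcd, had no count in the E9 libraries. It was at least 70.5-fold higher in knockout epidermis (11.2 ± 5.91 CPM) and at least 242-fold higher in E13 Het epidermis (45.4 ± 20.8 CPM) by the bound of 3 counts, and without E9 Het replicate 1 at least 41.3-fold and 142-fold. Notch1 and Grhl3 rose in E13 Het epidermis relative to E9, by 3.11 and 2.45 on the log2 scale, in each fit that left out 1 library. Grhl1 was higher in knockout epidermis than at E9 by 2.55 ± 0.35 (edgeR adjusted p = 0.00036) and Notch1 by 0.89 ± 0.22 (adjusted p = 0.024), lost without KO replicates 1 or 3 or E9 Het replicates 1 or 2 (up to 0.12).

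The other plakins and desmosomal plaque genes were 11, all tested. In knockout against Het epidermis 3 fell and none rose (median −0.49), where 1.36% of all genes fell and 0.835% rose. Dsp, which encodes desmoplakin, was at 596 ± 112 CPM in knockout epidermis, against 2009 ± 275 CPM in E13 Het epidermis (SD, n = 3 each; log2 −1.75 ± 0.15 SE, edgeR adjusted p = 1.5e-05). Dst, which overlaps Bend6, fell by 2.31, and both were called in each fit that left out 1 library. Pkp1, which encodes plakophilin 1, had a log2 fold change of −5.39 (adjusted p = 0.036) that was called only without KO replicate 3 (up to 0.19). In E13 against E9 Het epidermis 7 rose and none fell (median 1.26), among them Dsp by 1.88 and Pkp3 by 2.28. Over all genes 4.77% rose and 2.53% fell. In knockout epidermis against E9, Pkp3, Eppk1 and Jup were higher and Dst lower (median 0.48), where 4.62% of all genes were called higher and 3.05% lower. The Jup call was lost without KO replicates 1 or 3 or E9 Het replicates 1 or 2 (edgeR adjusted p up to 0.11).

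Against dermis, calls were higher in Het epidermis for 3 of 4 cornified envelope genes tested, 9 of 10 periderm genes, 13 of 22 regulators and 11 of 11 plakins and plaque genes, with 2 regulators lower. Over all genes tested against dermis 16.5% were called higher and 18.2% lower, and tissue and library preparation differ together. Among keratins, 52 symbols were counted and 12 tested in the epidermal fit. Krt5 alone was called in knockout against Het epidermis, with a log2 fold change of −5.17 ± 0.33 (SE, edgeR adjusted p = 9.4e-06). Krt4, Krt5, Krt14, Krt15 and Krt17 were higher at E13 than at E9 in Het epidermis, where Krt14 was lost without any 1 of the libraries (adjusted p up to 0.15) and Krt15 held only without E9 Het replicate 4 (up to 0.10).

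Genes with the pattern most like each member were sought by the root mean square difference of log2(CPM + 1), each gene centred on its own mean over the 12 libraries, among 12277 genes. Sfn and Ppl had the same 3 nearest genes, Dsp, Ripk4 and Wnt7a, with differences of 0.44, 0.57 and 0.63 from Sfn and 0.63, 0.67 and 0.69 from Ppl. Evpl was nearest to Arhgef19, Myh14 and Fras1 (0.56 to 0.59) and Tgm1 to Prkch, Limk2 and Phldb3 (0.59 to 0.64). Krt17 was nearest to Thsd7b, the desmosomal cadherin gene Dsg3 and Lypd3, at 0.88 to 0.93 the largest differences of the 8. Krt4 was nearest to Slc6a14, Klhl40 and Irs3 (0.57 to 0.69), Krt10 to Heg1, Cdh4 and Lmo1 (0.59 to 0.71) and Sbsn to Agbl2, Htatip2 and Wnt4 (0.55 to 0.60). These differences are not scaled to a gene's own spread over the libraries, so they do not rank how well members were matched. That spread was 2.60 for Krt17, 1.36 for Krt10 and 1.19 for Sbsn. The 12 libraries share groups and, between epidermis and dermis, differ in preparation.

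Heg1, the gene nearest to Krt10, was at 8.45 ± 5.24 CPM in knockout epidermis and 79.8 ± 36.8 CPM in E13 Het epidermis, with 15.9 ± 5.96 CPM at E9 and 77.2 ± 16.7 CPM in dermis (SD, n = 3 each). Arhgef19, nearest to Evpl, was at 102 ± 17.6 CPM in knockout epidermis and 149 ± 38.0 CPM in E13 Het epidermis, against 47.2 ± 5.26 CPM at E9 and 1.59 ± 0.721 CPM in dermis. Dsg3, near Krt17, was at 2.03 ± 2.12 CPM in knockout epidermis and 50.4 ± 28.3 CPM in E13 Het epidermis, with no count at E9 or in dermis. These genes were picked for their likeness over the same libraries, so a shared pattern is no finding.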

How the data were processed

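Whole-number read counts per gene symbol were deposited by the authors for each of the 12 RNA libraries. Per the submitters' processing notes TopHat2, Bowtie2, HTSeq and the mm10 build were used; versions are not given in the sources used here, nor is the strand setting of the counting. From every file the 5 summary lines, 48.8% to 63.8% of the epidermal totals and 20.2% to 21.6% of the dermal totals, were left out. The 7 ATAC libraries and the 1 ChIP library were not analysed here.

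Genes were filtered with filterByExpr, scaled by TMM and tested with edgeR 4.0.16 (quasi-likelihood F test, robust; R 4.3.3) with Benjamini-Hochberg adjustment over all genes tested and a threshold of 0.05. The 9 epidermal libraries shared 1 fit, and 6 libraries entered the comparison with dermis. An SE was derived from each F value, by dividing the absolute fold change (log2) by the root of F. Bounds use a floor of 3 counts over the group, and floors and 95% exact intervals cover counting error only. The alternatives were DESeq2 1.42.0, limma 3.58.1 voom, other scalings and filters, other sets of libraries and a replicate block. The fits were also run on simulated data, with less spread between libraries than here and large changes in genes with many counts. That run cannot show how the fits treat genes with few counts. Gene positions and promoters come from RefSeq annotation of GRCm38.p6.

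The 8 genes and all gene lists were chosen with earlier results of these data known. From each list up to 4 called genes with the smallest adjusted p in a comparison are eligible to be named, besides the 8 genes, Trp63, called keratins, Krt1, Krt13, Krt6a and the 3 nearest genes of each member. Some genes eligible by this rule are not reported here.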

Additional observations from a re-analysis of the deposited data

How the results depend on the processing

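Log2 fold changes of the 8 genes were recomputed under other settings, 532 values in all. Of these 457 kept their direction and their side of the threshold, 50 lost a call, 13 gained a call and 12 changed sign. The cause was not tested. The number of the 8 genes called in knockout against Het epidermis, 1, was 3 by DESeq2, 3 by limma voom and 0 with no filter, with the 2 groups alone or with all 12 libraries, and 0 to 2 with 1 library left out. In E13 against E9 Het epidermis the 5 became 3 with no filter, 0 without the libraries with fewest genes detected and 2 to 6 with 1 library left out. There DESeq2 called the same 5 and also Krt10 and Ppl (DESeq2 adjusted p = 0.026 and 0.0042). Limma voom called the same 5 except Tgm1. In knockout against E9 epidermis the 2 became 4 by DESeq2, 0 without the libraries with fewest genes and 0 to 1 with 1 library left out. Against dermis the 6 were 5 to 6 with 1 library left out. Deviations of same-numbered knockout and Het epidermal libraries correlated at −0.011, 0.199 and −0.023, the highest in replicate 2. The labels do not say that the numbers pair samples, and they were not taken to do so. A replicate block left 1 gene, Sfn, of 5 in E13 against E9 and 0 of 2 in knockout against E9. Replicate number 4 occurs only at E9, so with the block E9 Het replicate 4 does not enter the fold changes against E9. The effects of blocking and of losing that library cannot be told apart there. Over all genes, calls in knockout against Het (287) were 824 by DESeq2, 635 by voom and 182 without KO replicate 1. In E13 against E9 (952) they were 1997, 1692, 576 with the replicate block, 597 without E9 Het replicate 1 and 569 without E9 Het replicate 2. In knockout against E9 (1001) they were 2172, 2563, 540 with the replicate block, and 592, 606 and 557 without KO replicate 1, E9 Het replicate 1 and E9 Het replicate 2. Against dermis (4504) they were 2934 without dermis replicate 3. The sign changed only for log2 fold changes that were not called. Krt4 in knockout against Het became 0.028 by voom, 0.55 without the libraries with fewest genes and lay between −1.37 and 0.997 with 1 library left out, positive without Het replicate 1. Sfn in knockout against E9 became −0.011 by DESeq2, −0.0093 with RLE factors, −0.0072 with no filter, −0.0056 above 5 CPM, −0.010 without Rn45s and Lars2, and −0.43, −0.03 and −0.08 without KO replicate 1, KO replicate 2 and E9 Het replicate 4, with a range of −0.43 to 0.35. Ppl in knockout against E9 became −0.0097 without E9 Het replicate 1, in a range of −0.0097 to 0.35.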
